A study of Homo sapiens with 2 samples.

Results

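Box H/ACA and box C/D small nucleolar RNAs (snoRNAs) were examined in native RNA immunoprecipitation sequencing (RIP-seq) of HEK293 cells, a line derived from human embryonic kidney. The members were all rows of the deposited expression table whose symbol was SNORA or SNORD followed by a digit, which left out the Cajal body RNAs named SCARNA and the genes that carry snoRNAs in their introns. The rule found 137 of 13075 rows, 116 of them box H/ACA (SNORA) and 21 box C/D (SNORD), under 107 distinct symbols. Both libraries came from cells at passage 15 that were transfected with TOP3B carrying a FLAG tag and the R338W substitution. For the RIP library RNA was pulled down with a monoclonal antibody to FLAG, and the input library held RNA of the lysate with no antibody step. No RIP of untagged cells was analysed here. Each group was 1 library, so the values below compare 2 libraries rather than 2 conditions, with no replicate, SD or test. TOP3B is a topoisomerase of both DNA and RNA, and the RIP asks which RNAs are recovered with its R338W form.

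SnoRNAs guide the chemical modification of other RNAs in the nucleolus, mostly ribosomal RNA, by base pairing with the site. Box C/D snoRNAs carry the C and D boxes near their ends, bind fibrillarin with NOP56, NOP58 and SNU13, and guide 2′-O-methylation. Box H/ACA snoRNAs fold into hairpins followed by the H box and the ACA box, bind dyskerin (DKC1) with NOP10, NHP2 and GAR1, and guide pseudouridylation. A few of either class, such as U3, U8 and U17, act in the cleavage of the ribosomal RNA precursor instead. Most human snoRNAs are cut out of introns of other genes, while U3, U8 and U13 are made from genes of their own.

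The sequences below show the members that the results turn on. They are the transcripts of GENCODE release 29 on GRCh38, written as DNA, 5′ to 3′, with the boxes found at their usual places in capitals. Those are the H box ANANNA and the ACA box in SNORA rows, and the C box TGATGA and the D box CTGA in SNORD rows. The first set is the 3 members held by EIF4A1 on the plus strand of chromosome 17, of which SNORA67 was far lower in the RIP than the others. They are SNORA48 (chr17:7574713-7574847), SNORD10 (chr17:7576811-7576952) and SNORA67 (chr17:7577955-7578091).
SNORA48: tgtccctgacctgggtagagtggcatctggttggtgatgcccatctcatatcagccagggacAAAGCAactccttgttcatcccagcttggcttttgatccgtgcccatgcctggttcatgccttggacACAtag
SNORD10: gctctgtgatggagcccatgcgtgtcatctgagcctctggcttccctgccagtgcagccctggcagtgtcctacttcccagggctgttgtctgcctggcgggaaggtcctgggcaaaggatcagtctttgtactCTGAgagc
SNORA67: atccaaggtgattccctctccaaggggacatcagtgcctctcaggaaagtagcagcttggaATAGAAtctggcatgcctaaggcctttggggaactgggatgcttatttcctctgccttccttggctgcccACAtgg
The second set is SNORA71A (chr20:38427309-38427442) and SNORA71C (chr20:38429670-38429803), both on the minus strand in introns of SNHG17, which lay on opposite sides of equal values. Over the 134 bases of either sequence, 23 edits separated them, an identity of 82.8%.
SNORA71A: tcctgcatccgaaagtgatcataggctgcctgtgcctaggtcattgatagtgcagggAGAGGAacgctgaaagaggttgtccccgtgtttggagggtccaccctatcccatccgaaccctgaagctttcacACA
SNORA71C: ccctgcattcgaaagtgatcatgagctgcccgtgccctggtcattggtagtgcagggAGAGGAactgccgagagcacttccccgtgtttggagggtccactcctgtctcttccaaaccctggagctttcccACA
The last set is 2 box C/D members lower in the RIP. SNORD94 (chr2:86135870-86136006, plus strand) guides methylation of U6, and SNORD118 (chr17:8173454-8173587, minus strand) is the U8 snoRNA. In SNORD118 the C box letters were not in the first 30 bases.
SNORD94: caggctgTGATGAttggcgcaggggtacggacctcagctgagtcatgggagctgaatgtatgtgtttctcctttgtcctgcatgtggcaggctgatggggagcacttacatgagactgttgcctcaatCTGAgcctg
SNORD118: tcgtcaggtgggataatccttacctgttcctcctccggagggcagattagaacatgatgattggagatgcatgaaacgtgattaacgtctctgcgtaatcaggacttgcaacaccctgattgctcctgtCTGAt

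The boxes followed the 2 symbols. ACA stood in the last 8 bases of 106 of the 114 SNORA rows with 1 annotated transcript (93.0%), against 6.82% of 220 other genes with 1 transcript of 103 to 215 bases. ANANNA began between 40% and 65% of the length in 86.8% of SNORA rows and in 50% of the other genes. Among 16 SNORD rows with 1 transcript, CTGA stood in the last 30 bases of 15 (93.8%, other genes 9.55%) and TGATGA in the first 30 bases of 11 (68.8%, other genes 1.82%). Only the RNA's own strand was searched, and the windows of the 2 boxes of a class do not overlap. A match describes the letters and is not a measured binding site.

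Values were taken as FPKM, which scales the fragments of an RNA by a measure of its length and by the total of its library. The table does not name the unit. Ratios are log2((RIP + 1)/(input + 1)). The added 1 FPKM understates differences of low members. Of all rows, 12 members were listed at 0 in both libraries, 20 in the RIP alone and 14 in the input alone. A floor of at least 5 FPKM in at least 1 library was passed by 119 members, 99 of 116 H/ACA and 20 of 21 C/D. A member can pass it through 1 library alone, so counts over those that passed describe them and not all members. FPKM of one library cannot tell fewer molecules from a larger total of other RNAs, and in bulk RNA fewer cells with an RNA and less of it per cell cannot be told apart.

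Both classes were lower in the RIP than in the input by about the same amount. The median log2 ratio was -1.07 over 99 H/ACA members (quartiles -2.28 and -0.47) and -0.97 over 20 C/D members (quartiles -1.73 and 0.00), beside 0.13 over all 11990 genes past the floor. In the H/ACA class 50 members (50.5%) lay at least 2-fold below the input and 10 at least 2-fold above it. In the C/D class 10 members (50%) were lower and 3 higher. Of SNORA rows with 1 transcript past the floor, 90 with ACA at its usual place had a median of -1.21. The 7 without it had a median of 2.92, so some of the 10 higher H/ACA members lacked those letters. Every H/ACA member with a ratio of 2.92 or more was listed at 0 in the input. For the H box the medians were -0.96 over 84 rows with it and -1.24 over 13 without. Of all genes past the floor, 2.50% were at least 2-fold lower and 4.90% at least 2-fold higher. All genes together centre above 0, and centring on their median lowers every member by a further 0.13. Of all genes past 2-fold in either direction, 66.2% were higher as deposited, 44.8% after that centring and 38.5% after rescaling to the protein-coding sum. The neighbouring class of 26 SCARNA rows, which guide modification of spliceosomal RNAs, had a median of -1.02 over 23 past the floor, with 12 lower and 3 higher. The 3 medians lay close together, and with 1 library each there is no spread against which to set the difference between H/ACA and C/D.

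**Figure D1:**
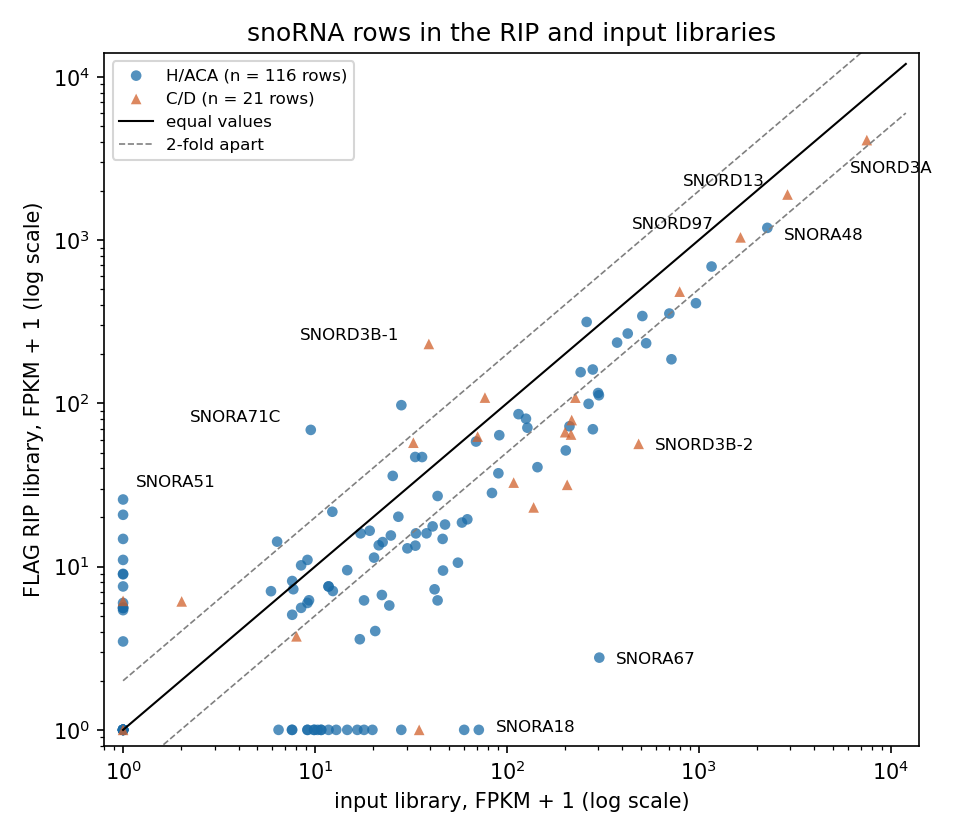
Value of each snoRNA row in the RIP (vertical axis) against the input (horizontal axis), both as FPKM + 1 on log scales. Circles are 116 H/ACA rows and triangles 21 C/D rows, the solid line marks equal values and the dashed lines values 2-fold apart. Most abundant members lie between equality and the lower dashed line, and the widest scatter is at low values, where rows at the left and bottom edges are listed at 0 in 1 library.

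Other short RNAs in the same libraries also lay below equality. In 188 other genes past the floor with 1 transcript of the members' lengths, the median was -0.73, with 72 (38.3%) at least 2-fold lower and 37 (19.7%) higher. The members of those lengths had a median of -1.09 over 110, with 57 (51.8%) lower and 10 (9.09%) higher. The median of other genes of these lengths thus also lay below that of all genes. The members' 51.8% stands beside 38.3% as well as beside 2.50%. The other genes were set apart by symbol alone, so snoRNAs under other names may be among them. Of 220 such genes before the floor, 8 held both the H and ACA boxes and 3 both the C and D boxes. The part of transcript length in the members' ratios was not tested.

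A small part of the summed FPKM of either library fell on snoRNAs. H/ACA members summed to 6344 FPKM in RIP and 12580 in input RNA, which was 0.582% and 0.832% of all FPKM in the library. C/D members summed to 8441 and 14910 FPKM, or 0.774% and 0.986%. The sums were 1.98 times higher in the input for H/ACA and 1.77 times for C/D. The C/D sum rested on few members, since SNORD3A alone made 48.5% of it in RIP and 50.4% in input RNA, and 5 members made 89.7% and 89.5%. In the H/ACA class SNORA48 made 18.7% and 18.1%, and 8 rows made 57.8% and 58.0%. The leading members thus held nearly the same share of their class in both libraries.

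The C/D members are the long end of their class. In GENCODE release 29, 247 of 278 SNORD genes (88.8%) are shorter than 104 bases, the shortest member with 1 transcript in the table, against 1 of 147 SNORA genes. The C/D members described here are therefore among the longest of their class, with a median of 125.5 bases, and the H/ACA members, with a median of 134 bases, are typical of theirs. SNORD14 and the imprinted families SNORD113 to SNORD116 gave no values here.

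The number of fragments behind each member could be read from the values. Many low FPKM of transcripts of equal length were whole multiples of 1 step, which was taken as the value of 1 fragment. For a transcript of 134 bases, 1 fragment was worth 5.22 FPKM in RIP and 8.51 in input RNA. At 104 bases it was worth 31.7 and 53.9 FPKM, and at 206 bases 0.806 and 1.28 FPKM, so the value of 1 fragment in the input was 1.70 to 1.58 times that in the RIP. A member with the same number of fragments in both libraries is therefore lower in the RIP, as SNORA17, with 1 fragment in each, shows: 6.56 FPKM in the RIP, 10.8 in the input and a log2 ratio of -0.64. Fragments could be estimated for 128 members, and they summed to 1733 in RIP and 2139 in input RNA over 113 H/ACA members, and to 549 and 571 over 15 C/D members. That is few, and 28 members rested on no more than 1 fragment in either library. The value of 1 fragment fell far faster with length than in proportion to it, so FPKM does not rank members of different lengths by fragments. In the RIP, SNORD13 had 1901 FPKM on 60 fragments and SNORA73A 232 FPKM on 288.5.

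Members outside the exons of other genes fell on whole fragments and members inside them did not. Of 104 values up to 20 fragments from members outside exons, 100 (96.2%) lay within 0.15 of a whole number. Of 52 values from members inside an annotated exon of another gene on the same strand, 20 (38.5%) did, where even spacing would give 30%. The step was chosen so that values of these lengths, members included, fell near whole fragments. Closeness to whole numbers is thus partly built in, for both kinds of member. Other genes of these lengths lay between, with 156 of 236 values (66.1%). In 33 of the 49 members inside exons the exon belongs to a transcript with a retained intron in which the snoRNA lies, and the counting tool named by the submitters, RSEM, can split a fragment between overlapping transcripts. Values of such members may therefore be shares of fragments between the snoRNA and the gene around it. The 2 kinds nevertheless had like medians, -1.02 over 42 members inside exons past the floor and -1.07 over 77 outside them.

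**Figure D2:**
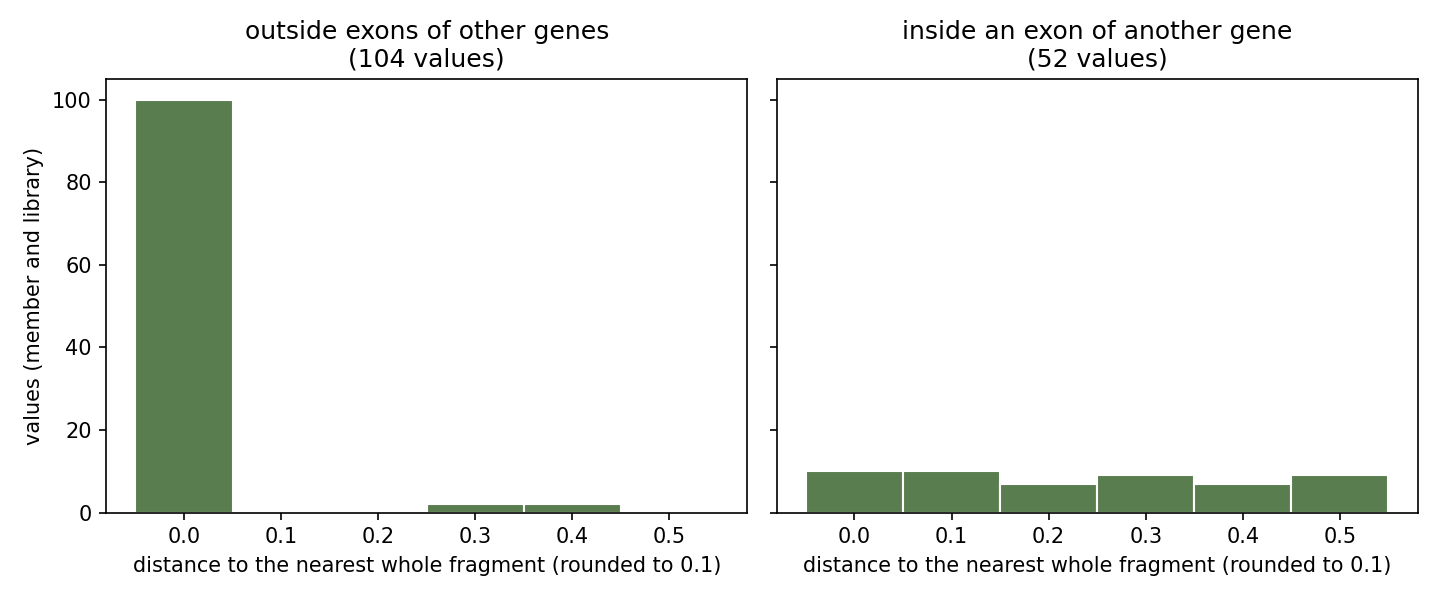
Distance of each estimated fragment number to the nearest whole number, rounded to 0.1, for values up to 20 fragments. Bars count values (member and library), on the left for members outside exons of other genes (104 values) and on the right for members inside one (52 values). Values on the left pile up at 0 and values on the right spread over the whole axis.

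Ratios spread most widely among members on few fragments. Exceptions with at least 10 fragments in 1 library included SNORA67 (-6.77, 40.5 fragments in the input), SNORA81 (-4.82, 12.7 in the input) and SNORA71C (2.85, 13 in the RIP). Among 36 members with at least 10 estimated fragments in 1 library, 16 lay at least 2-fold below the input and 2 above it, and the median was -0.87. That is 44.4% lower and 5.56% higher, beside 30% and 5.71% of 70 other genes of these lengths with as many fragments. Among the 74 past the floor with fewer, 41 were lower (55.4%) and 8 higher (10.8%), with a median of -1.28, beside 43.2% and 28.0% of 118 other genes. Putting members at 0 in 1 library at 3 fragments there, and leaving out 23 that had no more than that in the other library or no estimate, the median was -0.82 over 78 H/ACA members and -0.97 over 18 C/D members. Members above 0 in both libraries gave -0.80 over 73 H/ACA rows and -0.97 over 18 C/D rows.

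**Figure D3:**
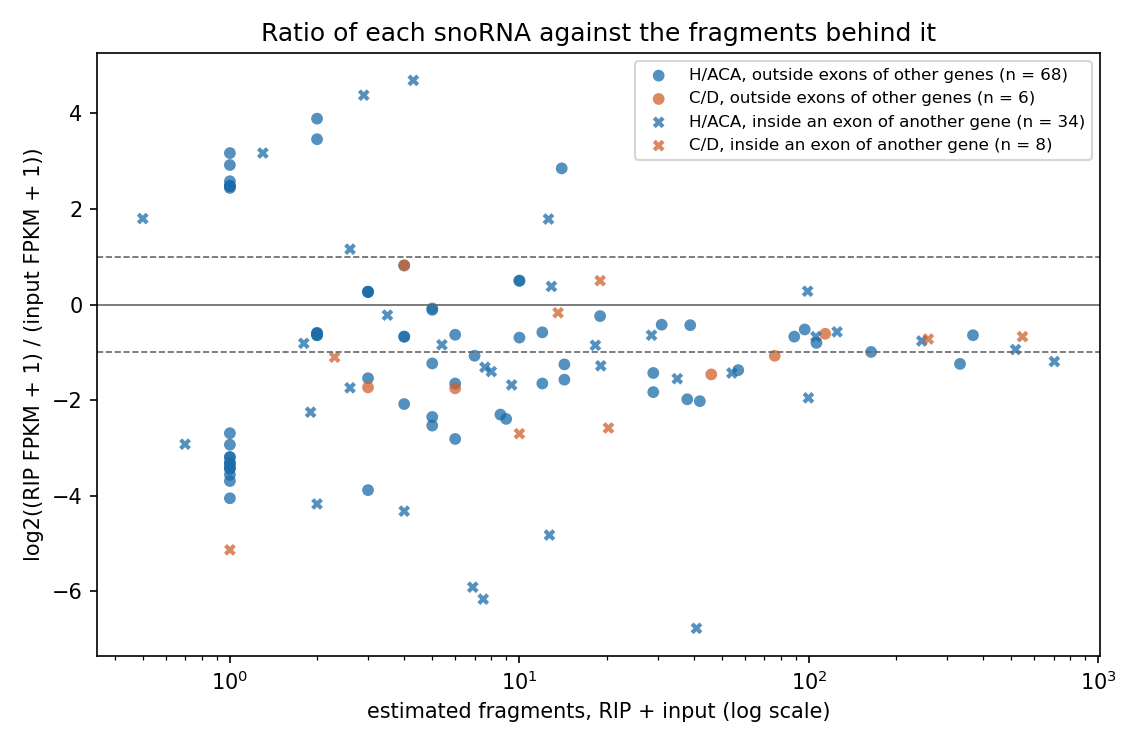
Log2 ratio of each member (vertical axis) against its estimated fragments summed over both libraries (log scale). Colour gives the class, circles are members outside exons of other genes and crosses members inside one, and dashed lines mark 2-fold. Ratios on under 10 fragments reach from -6.16 to 4.69, and those on over 50 fragments lie between -1.95 and 0.28.

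A 95% counting interval of the ratio of RIP to input FPKM was computed from the fragments. It covers counting error only, not the spread between experiments or the division of fragments between overlapping transcripts. Among the 36 members with at least 10 fragments the interval lay below 1 for 26 (72.2%) and above 1 for 1, SNORA71C. A member can enter this set through 1 library alone. SNORA71C did so through the RIP (13 and 1 fragments in RIP and input), and SNORA67 (0.4 and 40.5) and SNORA81 (0 and 12.7) through the input. The interval lay below 1 for 13 of 18 inside exons of other genes, whose values may be shares of fragments, and for 13 of 18 outside them. With no minimum of fragments it lay below 1 for 32 of 116 members and above 1 for 1, beside 25.0% and 1.51% of 332 genes, members included. Over all genes of these lengths with as many fragments the interval lay below 1 for 65.5% of 110 and above 1 for 3.64%, and for 62.2% of 74 once the members were left out. The members' 72.2% is close to both.

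Ribosomal RNA processing snoRNAs came first in FPKM in the C/D class. SNORD3A (U3, needed for early cleavage of the precursor, chr17:19188016-19188714, plus strand) stood at 4097 FPKM in RIP and 7515 in input RNA, a log2 ratio of -0.88 (-1.05, past 2-fold, after rescaling to the protein-coding sum). Its near copies SNORD3B-1 and SNORD3B-2 went opposite ways: SNORD3B-1 was listed at 230.1 FPKM in RIP and 38.2 in input RNA, and SNORD3B-2 at 55.5 and 485. These are neighbouring genes on opposite strands of chromosome 17 with 3 annotated transcripts each, and fragments shared among near copies can be assigned to any of them. Summed over the 3 genes, U3 stood at 4382 FPKM in RIP and 8038 in input RNA, a log2 ratio of -0.87. SNORD3A made most of both sums, so the summed ratio is close to its own whatever the near copies did. SNORD13 (U13), made from a gene of its own outside other genes, stood at 1901 and 2901 FPKM on 60 and 53.8 fragments, 0.655 of the input with a counting interval of 0.446 to 0.965. SNORD13 has 104 bases, and its place by FPKM is not a place by fragments. SNORD97 and SNORD10, of 142 bases, had fewer FPKM on more fragments, 276.2 and 128.3 in the RIP.

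SNORD118 (U8, needed for the large subunit RNAs) had a lower ratio than SNORD13 and the U3 sum. It was at 22.04 FPKM in RIP and 137 in input RNA, on 4.2 and 16.1 fragments, a ratio of 0.161 with an interval of 0.0409 to 0.488. That interval overlaps the 0.446 to 0.965 of SNORD13, and the U3 sum has no interval. SNORD118 overlaps an exon of TMEM107, which itself had 15.2 and 23.6 FPKM. The H/ACA members SNORA73A (chr1:28507366-28507571) and SNORA73B (chr1:28508559-28508762), both on the plus strand (U17, which acts in small subunit RNA processing) were among the best covered of their class. SNORA73A stood at 232 FPKM in RIP and 531 in input RNA on 288.5 and 415.7 fragments, and SNORA73B at 154 and 241 on 185.5 and 183.2. Their ratios were 0.438 (interval 0.375 to 0.510) and 0.639 (interval 0.518 to 0.788), and the intervals did not overlap. The 2 differ by 14 edits and only SNORA73A lies in an exon of their holding gene SNHG3. Their sum stood at 387 FPKM in RIP and 772 in input RNA.

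SNORD22 (U22, small subunit processing) lay near equality. It has 2 rows in SNHG1, with an identity of 64.3%. ENSG00000277194, which GENCODE also names SNORD22, was at 61.6 FPKM in RIP and 69.4 in input RNA, a log2 ratio of -0.17. ENSG00000278527, which has only an RF family name there, was at 107 and 75.9, a log2 ratio of 0.50. Together they stood at 169 and 145 FPKM, a log2 ratio of 0.22, while SNHG1 was at 327 and 169 FPKM. Both rows lie in exons of SNHG1 and rested on 21.4 and 11.3 fragments together. Their counting intervals, 0.264 to 3.24 and 0.498 to 4.65 in that order, held 1 and overlapped that of SNORD13.

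Several abundant H/ACA members lay somewhat below equality. SNORA48 stood at 1188 FPKM in RIP and 2277 in input RNA on 237.8 and 279.6 fragments, a ratio of 0.522 (interval 0.437 to 0.622). SNORA63 (ENSG00000200320, the E3 snoRNA, chr3:186787300-186787431, plus strand, in an exon of EIF4A2) was at 688 and 1165 FPKM, a ratio of 0.590 (0.456 to 0.764). SNORA79 (ENSG00000222489, chr14:20323179-20323326, minus strand, in an intron of CCNB1IP1) was at 410 and 966 FPKM, a ratio of 0.424 (0.338 to 0.530). Each of the 3 rested on over 100 fragments in both libraries, and each interval lay below 1.

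Others like them were less abundant. SNORA49, in an intron of EP400, stood at 354 and 702 FPKM on 74 and 90 fragments. SNORA52, in an exon of RPLP2, was at 342 and 507 FPKM, and SNORA70 (ENSG00000207165), in an exon of RPL10, at 267 and 426. SNORA12 (ENSG00000212464), in an intron of CWF19L1, was at 160 and 279 FPKM on 51.1 and 55.1 fragments. Their log2 ratios were -0.99, -0.57, -0.67 and -0.80, so all 4 lay below equality and inside 2-fold, SNORA49 only just, and past it once ratios were centred on the median gene.

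SNORA38, SNORA34 and SNORA47 were the lowest of the well covered members in introns. SNORA38, in an intron of PRRC2A (chr6:31623079-31623210, plus strand), stood at 68.4 FPKM in RIP and 280 in input RNA on 12 and 30 fragments, a ratio of 0.245 (interval 0.114 to 0.492). SNORA34, in KANSL2, was at 50.5 and 202 FPKM on 11 and 27 fragments, and SNORA47, in ZBED3, at 39.6 and 143 on 9 and 20. All 3 fell on whole fragments in both libraries and were over 3-fold lower in the RIP. They were picked from the plot of intervals after their values were seen.

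**Figure D4:**
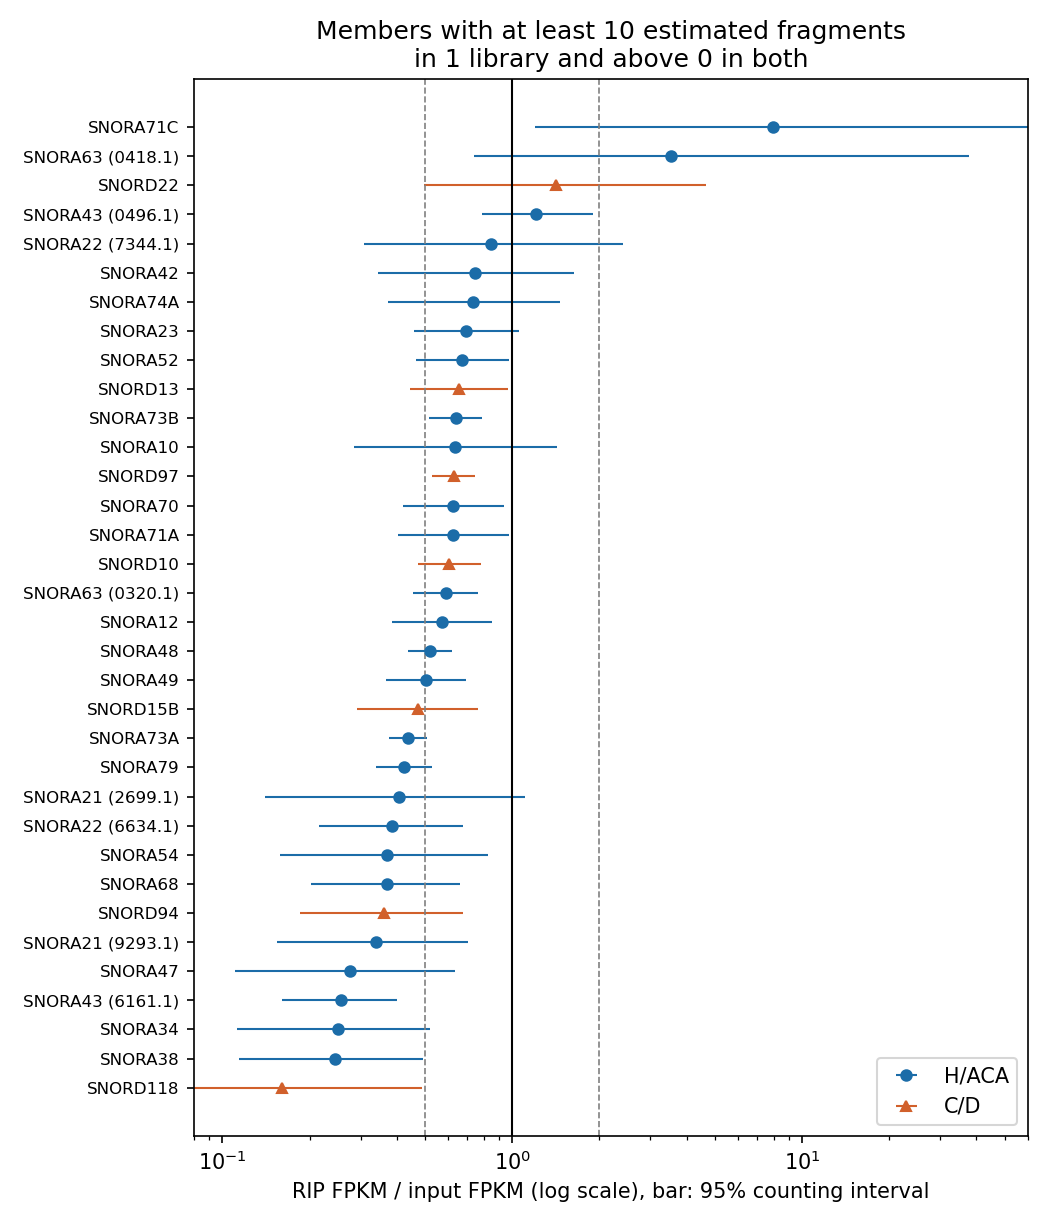
Ratio of RIP to input FPKM with its 95% counting interval (log scale) for 34 members with at least 10 estimated fragments in 1 library. Circles are H/ACA and triangles C/D, rows sharing a symbol carry the end of their Ensembl identifier, and the dashed lines mark 2-fold. SNORA67 and SNORA81 had at least 10 fragments but under 1 or none in the RIP and are not drawn, the SNORA71C bar runs past the axis to 339 and the SNORD118 bar to 0.0409.

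Of the 3 members held by EIF4A1, SNORA48 and SNORD10 had overlapping counting intervals and SNORA67 was far lower. SNORA48 had a log2 ratio of -0.94 and SNORD10, a guide of U6 methylation, stood at 482 FPKM in RIP and 794 in input RNA, a log2 ratio of -0.72. SNORA67 was listed at 1.77 FPKM in RIP and 302 in input RNA, a log2 ratio of -6.77 and the lowest among members above 0 in both libraries. In fragments that is 0.4 against 40.5, and the counting interval of the ratio ends at 0.0712. EIF4A1 itself stood at 1137 FPKM in RIP and 614 in input RNA, a log2 ratio of 0.89. All 3 snoRNAs lie in exons of annotated EIF4A1 transcripts, so an unknown share of their fragments may have been given to the gene, and whether the division moved with the level of EIF4A1 was not tested.

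Other members at the low end rested on few fragments. SNORA76A stood at 5.21 FPKM in RIP and 42.6 in input RNA, on 1 and 5 fragments. SNORA33 was at 6.26 and 41.0 FPKM, SNORA80B at 9.57 and 54.6, and SNORA75 (ENSG00000212432) at 3.03 and 19.6. Of these 4, SNORA80B alone, on 2 and 7 fragments, had a counting interval below 1 (0.0178 to 0.921). Among members listed at 0 in the RIP, SNORA18 had 70.4 FPKM in the input (7.5 fragments), SNORA64 58.9 (6.9 fragments), SNORA81 27.2 (12.7 fragments) and SNORD8 33.9 (1 fragment). All 4 lie in exons of the genes that hold them.

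SNORA71C was the 1 member whose counting interval lay above 1, and it had 10 fragments or more in the RIP alone. It stood at 67.8 FPKM in RIP and 8.51 in input RNA, on 13 and 1 fragments, a ratio of 7.96 with a counting interval of 1.2 to 339. SNORA71A and SNORA71D lay the other way. SNORA71A was at 235 and 375 FPKM on 45 and 44 fragments, and SNORA71D at 26.1 and 42.6 FPKM on 5 and 5. A further row listed as SNORA71 (ENSG00000277034) was at 19.8 FPKM in the RIP and listed at 0 in the input, and SNORA71B was at 7.16 and 6.61. Summed over the 5 rows the family stood at 355 and 432 FPKM, a log2 ratio of -0.28.

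Other high ratios were small in fragments or shared. SNORA63 (ENSG00000200418), in an exon of EIF4A2, stood at 96.5 FPKM in RIP and 27.2 in input RNA on 10.8 and 1.8 fragments, and its interval of 0.737 to 37.7 held 1. SNORA45A, in an exon of RPL27A, was at 13.2 and 5.35 FPKM on 2.1 and 0.5 fragments. SNORA11 (ENSG00000221716) was at 20.7 and 11.3 FPKM on 3 fragments and 1, inside 2-fold. SNORA51 (ENSG00000271798), in an exon of NOP56, was at 24.8 FPKM in the RIP on 4.3 fragments and listed at 0 in the input. The other H/ACA members at least 2-fold higher were SNORA40, SNORA70F, SNORA3, SNORA61 and SNORA72 (ENSG00000200355). All were listed at 0 in the input, on no more than 2 fragments in the RIP. SNORA37 (45.9 and 32.3 FPKM) and SNORA76 (34.9 and 24.4 FPKM) had 7 fragments in RIP and 3 in input RNA, and both had a log2 ratio of 0.50. The 3 C/D members at least 2-fold higher were SNORD3B-1, SNORD91A and SNORD91B, which all have more than 1 transcript and so no fragment estimate. SNORD91A was at 5.17 FPKM in the RIP and listed at 0 in the input, and SNORD91B at 5.12 and 1.02.

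The other C/D members were mostly lower. SNORD15B, a guide of ribosomal RNA methylation in an intron of RPS3 (chr11:75404421-75404566, plus strand), stood at 107 FPKM in RIP and 226 in input RNA on 33.1 and 43.1 fragments, a ratio of 0.474 (interval 0.292 to 0.764). SNORD94 was at 78 and 217 FPKM on 17 and 29 fragments, a ratio of 0.360 (0.186 to 0.677). SNORD97, the third most abundant C/D member, lies in an exon of EIF4G2 (chr11:10801467-10801608, minus strand) and was at 1038 and 1650 FPKM on 276.2 and 270.5 fragments, a ratio of 0.629 (0.530 to 0.747). SNORD89 (30.7 and 205 FPKM), SNORD46 (31.7 and 108 FPKM) and SNORD17 (65.6 and 200.3 FPKM) were over 3-fold lower, the first 2 on 8 and 2 fragments in the input.

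Of 5 snoRNAs of the table that guide methylation of the spliceosomal RNA U6, 4 lay below equality and 3 at least 2-fold below, beside 50.4% of all members past the floor. SNORD94, SNORD9 and SNORD8 were at least 2-fold lower, SNORD10 was lower within 2-fold, and SNORD67 was at 56.4 FPKM in RIP and 31.6 in input RNA on 3 fragments and 1, with a counting interval of 0.144 to 93.6 that held 1. SNORD9, at 63.4 and 215 FPKM, rested on 2 and 4 fragments. Summed, the 5 stood at 680 FPKM in RIP and 1292 in input RNA, most of it SNORD10. They were grouped by function after their values were seen.

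Most snoRNAs were lower than the genes that hold them. In 98 pairs with both past the floor, the snoRNA had the lower ratio in 77 and the higher in 21, with medians of -1.07 for the snoRNA and 0.27 for the holding gene. Some of the 77 holding genes hold several members, so the pairs are not independent. In 47 pairs the snoRNA was below equality and its gene above. The count was 64 of 82 for H/ACA and 13 of 16 for C/D, 45 of 57 for members in introns, and 28 of 34 for members with at least 10 fragments. The holding genes are far longer than the members, and the pairs compare a gene's own ratio with that of its snoRNA, not levels.

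Each kind of holding gene had a higher median than its snoRNAs. Genes for ribosomal proteins had a median of -0.40 over 15 pairs and their snoRNAs -1.23. Other protein-coding genes had 0.49 over 63 pairs and their snoRNAs -1.07. Noncoding holding genes had 0.14 over 20 pairs and their snoRNAs -0.66. SNORA54, at 98.3 FPKM in RIP and 266 in input RNA, lies in an intron of NAP1L4, which lay the opposite way at 239 and 92.7. At the other end, SNHG3 was lower (16.3 and 44.8 FPKM) by more than SNORA73B that it holds.

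**Figure D5:**
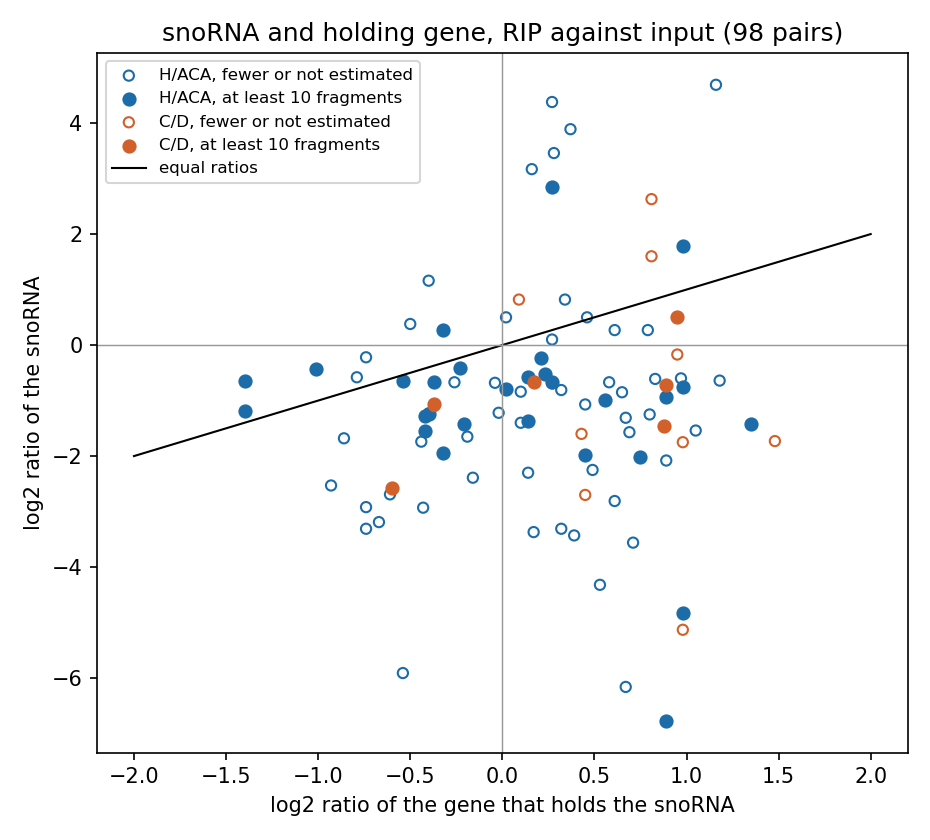
Log2 ratio of each snoRNA (vertical axis) against that of the gene that holds it (horizontal axis), for 98 pairs past the floor. Colour gives the class, filled points have at least 10 estimated fragments and open points fewer or no estimate, and the diagonal marks equal ratios. The snoRNA lies below the diagonal in 77 pairs, and the 2-fold limit is passed by the holding gene in 3 pairs downwards and 5 upwards, and by the snoRNA in 50 and 10.

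Rows that share a symbol were not always near copies of each other. Under 19 symbols there was more than 1 row, 49 rows in all, and 28 rows have only an RF family name in GENCODE release 29. Another symbol there than in the table is given to 51 rows, RF names included: SNORA34 is SNORA2C, SNORA45A is SNORA3A and SNORA76A is SNORA50A. SNORA22 had 3 rows, at 115, 17.6 and 57.4 FPKM in the RIP and 298, 57.4 and 68.1 in the input, in CCT6P1, CCT6A and CCT6P3, with identities of 92.8% to 98.5%. SNORA21 had 2 rows in RPL23, at 71.4 and 36.3 FPKM in the RIP and 211 and 89.3 in the input, with an identity of 61.8%. SNORA31 in TPT1 had 1 row listed at 0 in both libraries and 1 at 45.9 FPKM in RIP and 35.2 in input RNA, with an identity of 72.4%. All 3 SNORA15 rows were listed at 0 in both. Where copies are near-identical, how fragments were shared among them is not given in the sources used here.

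By place in the genome, H/ACA members in introns had a median of -1.03 over 52, those inside exons -1.06 over 34 and those at a locus of their own -1.65 over 13. The last group was made of rare rows, which summed to only 59.3 FPKM in RIP and 166.8 in input RNA, on 15 and 23 fragments in all, so its lower median is a median of rows on 1 or a few fragments.

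Transcripts of snoRNA proteins lay near the median of all genes, 0.13, and 1 of 20 was at least 2-fold higher and 0 lower, beside 4.90% and 2.50% of all genes. The H/ACA core proteins had a median of -0.02 over 4, with DKC1 at 107 FPKM in RIP and 75.7 in input RNA and GAR1 at 10.6 and 16.9. The C/D core proteins had a median of 0.07 over 4, and NOP56, at 860 and 385 FPKM, was the 1 gene of the 8 past 2-fold. FBL, which encodes the methyltransferase fibrillarin, stood at 124 and 134 FPKM. The 12 assembly factors had a median of 0.10 and 0 of 12 past 2-fold, with NOLC1, which brings both kinds of particle to nucleoli and Cajal bodies, at 65.9 and 65.2 FPKM. These are levels of messenger RNA and say nothing of the proteins.

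Facts of the whole libraries bear on all these values. Summed FPKM was 1090243 in RIP and 1512049 in input RNA, and the transcript of the bait, TOP3B, stood at 30666 and 15062 FPKM. Of 7 markers of HEK293 cells 5 were found and 4 passed the floor, and PAX2 and LHX1 gave no values here. VIM stood at 679 FPKM in RIP and 544 in input RNA, NEFL at 41.5 and 27.3, and NEFM at 14.1 and 10.7. SALL2 was lower in the RIP, at 7.65 and 10.5 FPKM, as was NES, under the floor at 3.60 and 4.93. Of 9 markers of other kidney, liver and blood cells 1 was found, LRP2, at 5.49 FPKM in RIP and 1.96 in input RNA.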

How the data were processed

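RNA of HEK293 cells was measured in 1 RIP and 1 input library, and groups were taken from the sample titles. Per the labels' protocols, a commercial RIP kit and a stranded total RNA library kit were used. Tools named in the submitters' processing notes are RSEM 1.2.31, STAR 2.6.1, cutadapt 1.18 and Trimmomatic 0.3, with hg38 as the build. Roles, settings, annotation release and any filter: not given in the sources used here. For 13075 genes the authors deposited values in a unit that is not named, taken as FPKM, scaled by the authors to transcript length and library total, because values carry decimals, sum to different totals and, at equal transcript length, are in many cases multiples of 1 step. In 36 rows the symbol was split over columns and such rows were read by the named value columns.

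The ratio was log2((RIP + 1)/(input + 1)) for genes that reached 5 FPKM in either library, and 2-fold was the limit for counts. Members were matched to GENCODE release 29 on GRCh38, which is hg38, for places, lengths and sequences: all 137 matched with the same identifier version. Identity is edit distance over the longer sequence. The value of 1 fragment was fitted per library as a smooth curve of transcript length over genes with 1 transcript, on 58 lengths each, from 103 to 215 bases. The search for that step was revised 2 times, after a test on simulated data failed and after a revision gave a step of 0.5 fragments in the input, so its final form was chosen after seeing the data. The test's limit on the largest error was first raised and then dropped, after simulated libraries missed it at the ends of the length range, where the curve is least sure; limits on the median error and on whole fragments recovered were kept. Intervals at 95% are exact binomial (Clopper-Pearson) on the fragments of both libraries, with fractions kept, and cover counting error only. The depth of the whole libraries was not needed for them.

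Holding genes are genes that overlap a member on the same strand, the one with the highest input value where there were several. All members could be named, but values of 1 holding gene and of 1 locus, whose rows are among the most abundant of the H/ACA class, are not reported here. These rows are in all counts. Other than these, given in full were, per class, the 8 most abundant, the 5 highest and 5 lowest ratios among members above 0 in both libraries, members at 0 in 1 library with at least 20 FPKM in the other, and the lists of processing snoRNAs and proteins. Members, lists and rules were chosen with earlier results of these data known. Alternatives were other pseudocounts, floors, fold limits and scalings, and subsets by zeros, copies, fragments and exons. Scaling with TMM or size factors was planned for counts alone and was not run. Calculations used Python 3.11.15, numpy 2.4.6, scipy 1.17.1, edlib 1.3.9.post1 and matplotlib 3.10.9.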

Additional observations from a re-analysis of the deposited data

How the results depend on the processing

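The median log2 ratio of H/ACA members lay between -1.25 and -0.68 and that of C/D members between -1.15 and -0.72 under the settings tried. Centring and rescaling to the protein-coding sum both lowered the 2 medians. Scaling to equal summed FPKM was not tried. With 1090243 FPKM in RIP and 1512049 in input RNA, such scaling would raise the ratios of members above 0 in both libraries. H/ACA members at least 2-fold higher (10 of 99) became 16 of 116 with no floor and 3 of 57 with a floor of 20 FPKM. They were 3 of 73 for members above 0 in both libraries and 2 of 29 with at least 10 fragments. Those lower (50 of 99) became 31 of 57 with the floor of 20 and 28 of 99 at 4-fold. They were 31 of 73 above 0 in both and 13 of 29 with at least 10 fragments. C/D members higher (3 of 20) became 1 of 17 with the floor of 20 and 0 of 7 with at least 10 fragments. Those lower (10 of 20) became 4 of 20 at 4-fold and 3 of 7 with at least 10 fragments. Outside exons, a setting added after seeing the data, 5 of 65 H/ACA members were higher and 33 of 65 lower. There 6 of 12 C/D members were lower and 3 higher. Outside exons with at least 10 fragments, also added, 1 H/ACA was higher and 6 lower of 15, and 0 C/D were higher and 2 lower of 3. These subsets hold fewer members. Among all genes, those higher (588 of 11990) became 300 with pseudocount 5 and 352 of 6285 with the floor of 20. They became 365 after centring, 320 after rescaling to the protein-coding sum, 2386 at 1.5-fold and 79 at 4-fold. Those lower (300 of 11990) became 180 with pseudocount 5, 157 of 6285 with the floor of 20 and 511 after rescaling. They became 1222 at 1.5-fold and 84 at 4-fold. Of genes past the limit 66.2% were higher as reported, 44.8% after centring and 38.5% after rescaling, which shifts ratios by -0.18. For 40 single members followed through these settings, 227 values stayed within their counting interval or kept their value. The 10 that moved were all of SNORD3A, SNORD3B-1, SNORD3B-2 and SNORD91B, which have several transcripts and no counting interval. For members on few fragments the intervals are so wide that staying within them says little. SNORD8, with an interval of 0 to 23.1, counted as staying although its log2 ratio of -5.13 became -8.41 with pseudocount 0.1. With pseudocount 5 it was -2.96. No paired analysis was possible because RIP and input were 1 library each. With 1 library per group, no value here has a replicate check, and 92 of 128 members rested on fewer than 10 fragments in both libraries.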
